A study of Bos taurus with 18 samples.

Results

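The miR-17-92 cluster is a group of miRNAs cut from 1 primary transcript, and it was followed here in the plasma of Japanese Black steers. Its members were taken by name from the deposited tables: *bta-miR-17-5p*, *bta-miR-17-3p*, *bta-miR-18a*, *bta-miR-19a*, *bta-miR-20a*, *bta-miR-19b* and *bta-miR-92a*, which are 7 of 1071 listed miRNAs. All 7 passed the filter on low values (CPM-normalized counts, counts scaled to the library total, above 5 in at least 3 of 9 libraries) in both fractions. It left 345 miRNAs in the exosomal (EX) fraction, 358 in the non-exosomal free circulating (FC) fraction and 330 in both. The study drew plasma from 3 steers of 1 farm and feeding system at about 20, 25 and 30 months of age, and made 1 EX and 1 FC library from each of the 9 plasma samples. The EX fraction is the RNA of plasma vesicles separated with a commercial kit, and the FC fraction is the RNA left outside them, which can be bound to protein. The same 3 steers stand behind all 18 libraries, so the 3 libraries of a group are 3 animals.

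Clustered miRNAs are transcribed together, and the enzymes Drosha and Dicer then cut each hairpin out separately, so that their mature levels can part from one another. A mature miRNA finds its targets mainly through the seed, a short run of bases near its 5′ end, and the cluster holds several seeds. The cluster is known for driving cell division and survival, and for its need in the early development of B cells. In plasma, fewer cells of a type that release a miRNA and less of it per cell cannot be told apart.

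The mature sequences show which members share a seed, and how little some of them differ. They are given 5′ to 3′ as in the deposited count table, with the seed (bases 2 to 8) in capitals, in the order of their hairpins along the transcript.
bta-miR-17-5p: cAAAGUGCuuacagugcagguagu
bta-miR-17-3p: aCUGCAGUgaaggcacuugu
bta-miR-18a: uAAGGUGCaucuagugcagaua
bta-miR-19a: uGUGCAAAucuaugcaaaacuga
bta-miR-20a: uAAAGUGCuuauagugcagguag
bta-miR-19b: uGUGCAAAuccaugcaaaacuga
bta-miR-92a: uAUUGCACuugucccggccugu
The first 2 lines are the arms of 1 hairpin. RefSeq's gene table for ARS-UCD2.0 lists the 6 hairpin genes in the order *MIR17*, *MIR18A*, *MIR19A*, *MIR20A*, *MIR19B* and *MIR92A-1*, with no other listed gene between them.

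*bta-miR-17-5p* and *bta-miR-20a*, which repress brakes on the cell cycle, share the seed AAAGUGC with 4 other miRNAs of the table. *bta-miR-18a* shares AAGGUGC with *bta-miR-18b*. *bta-miR-19a* and *bta-miR-19b* have the seed GUGCAAA to themselves. *bta-miR-92a*, known for restraining blood vessel growth, shares AUUGCAC with *bta-miR-25*, *bta-miR-32* and *bta-miR-92b*. Only *bta-miR-17-3p* has a seed, CUGCAGU, that no other miRNA of the table carries.

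Bases were compared without gaps from the 5′ end, with the base of the first miRNA before the position and that of the second after it. *bta-miR-19a* and *bta-miR-19b* differ at 1 of 23 positions (U11C). *bta-miR-17-5p* and *bta-miR-20a* differ at 2 of 23 (C1U and C12U). *bta-miR-17-5p* differs at 1 of 22 from *bta-miR-106a* (C1A) and from *bta-miR-20b* (U10C) of the paralogous cluster miR-106a-363, and *bta-miR-18a* at 1 of 22 from *bta-miR-18b* (A20U). Reads shared by such neighbours were divided among them, which leaves counts that are not whole. Within 0.005 counts, the counts of *bta-miR-17-5p* were whole in 0 of 18 libraries and those of *bta-miR-17-3p* in 18 of 18, with the other members between 2 and 11. The paralogous cluster also holds hairpins named *MIR92A-2* and *MIR19B-2*, and the products of these cannot be told apart from those of *MIR92A-1* and *MIR19B*.

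The counts assigned to miRNAs ranged from 991354 to 2778618 per EX library and from 3615234 to 12088735 per FC library. Totals were lower at 30 months. In FC they ranged from 3615234 to 4871908 at that age, against 6958135 or more at 20 and 25 months. The EX medians were 2052337, 2250628 and 1082798 at 20, 25 and 30 months. A floor of 3 counts stands for 1.08 to 3.03 CPM in the EX libraries, for 0.248 to 0.83 CPM in the deeper FC libraries, and covers counting error only, since copies of 1 molecule made by PCR are not independent. The EX libraries at 30 months stood apart. Of the 345 EX miRNAs, 93 had no count in at least 2 of these 3 libraries, against 17 of 358 in FC at that age. Between 18 and 41 miRNAs had counts from 4 to 39 in them, against 109 to 161 in the other EX libraries. Instead, low counts gathered near 86, 68 and 39 for steers 1, 2 and 3, the most common whole counts of these libraries. In the other EX libraries the most common count lay between 10 and 44, and *bta-miR-17-3p* at 25 months was 1.59 to 2.92 times that count. *bta-miR-17-3p* and *bta-miR-18a*, the least abundant members, lie near or under these values at 30 months, except *bta-miR-18a* in steer 3, and what this does to their results is given with them.

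The 7 members spanned levels from 0 to 15136 CPM, and their order was nearly the same in both fractions. Over 9 libraries, *bta-miR-92a* averaged 10333 ± 2981 CPM (SD) in EX, averaged 9450.02 ± 3835 CPM in FC, and was the 25th most abundant miRNA of each. *bta-miR-20a* followed with 3611 ± 1125 and 3987 ± 1415 CPM, at rank 46 in both. CPM is not scaled by length, and the mature sequences are 20 to 24 bases long. *bta-miR-19b* had 1196 ± 481 CPM in EX against 1375 ± 435 in FC, and *bta-miR-19a* 718 ± 239 and 779.6 ± 129. *bta-miR-17-5p* had 661 ± 237 and 382 ± 123 CPM, *bta-miR-18a* 122 ± 84.2 and 196 ± 61.6, and *bta-miR-17-3p* 15.8 ± 15.9 and 34.9 ± 10.4, at ranks 257 and 211. Each member exceeded the next of this order in 9 of 9 FC libraries. In EX this failed for *bta-miR-19b* over *bta-miR-19a*, which held in 8 of 9 libraries, and for *bta-miR-19a* over *bta-miR-17-5p*, in 6 of 9, a pair whose means differed by less than their spread.

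The cluster as a whole took a smaller share of the library at 30 months in both fractions. In EX, the 7 members summed to 2.07 ± 0.196% of the library at 20 months, 1.83 ± 0.155% at 25 months and 1.09 ± 0.055% at 30 months (mean ± SD, 3 steers). The FC sums were 1.92 ± 0.367%, 1.98 ± 0.324% and 0.962 ± 0.199%. The 3 libraries at 30 months lay below the other 6 in each fraction. *bta-miR-92a* made up most of the sum throughout, with group means from 50.5% (FC, 30 months) to 64.7% (EX, 25 months).

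**Figure D1:**
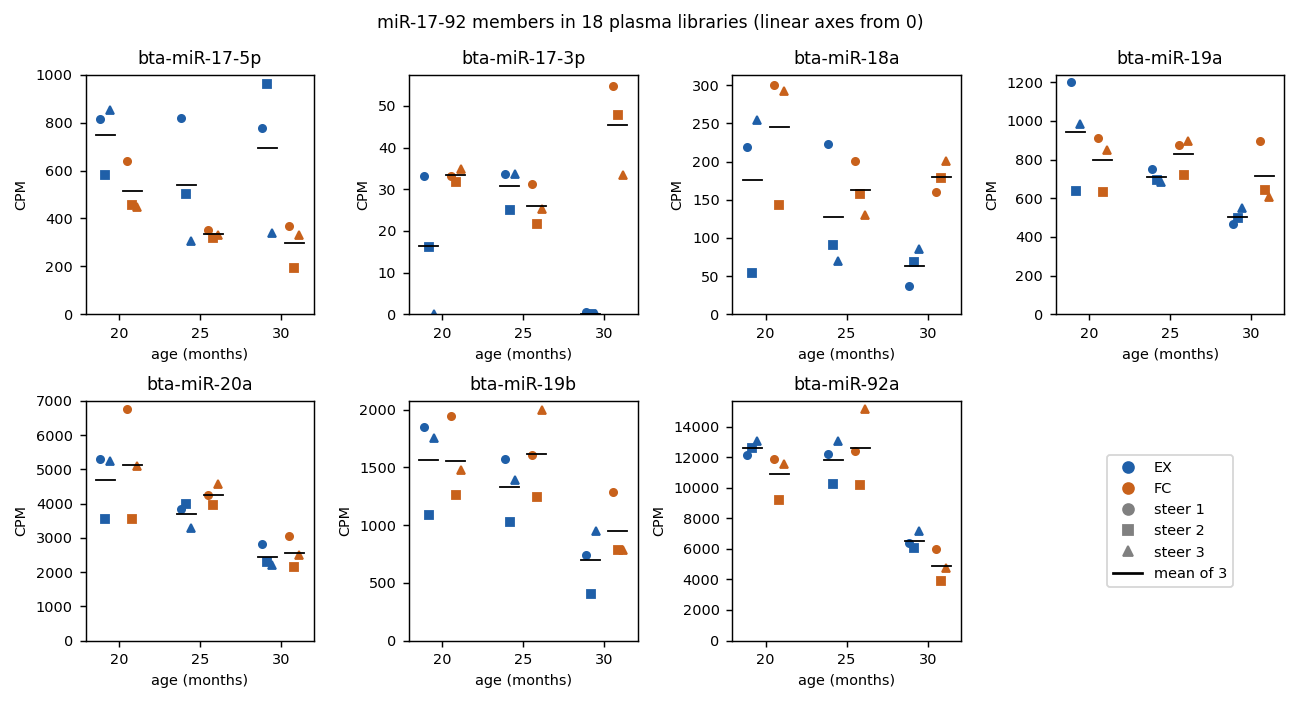
CPM-normalized counts (linear y axes from 0) of the 7 members by age in months on the x axis, with blue points for EX, orange points for FC, symbols for the 3 steers and black bars for the mean of 3 libraries. The points of *bta-miR-92a* and *bta-miR-20a* at 30 months lie below all earlier points of the same fraction, while *bta-miR-17-3p* lies at or near 0 in EX and between 33.4 and 54.8 CPM in FC at that age.

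The question of the age comparisons is how the plasma profile changes while the steers are fattened. Each fraction was fitted with the quasi-likelihood test of edgeR with steer as a block, and a miRNA was called as differentially existing (DE-miRNA) at an adjusted p (FDR, adjusted over all miRNAs tested) under 0.05 and an absolute log2 fold change above 1. In the EX fraction, 3 of 7 members fell from 25 to 30 months, *bta-miR-19b*, *bta-miR-92a* and *bta-miR-20a*, and 0 rose. Over all 345 miRNAs tested, 14.2% were called. The median log2 fold change was −1.33 over the 7 members and −0.51 over all miRNAs tested. Against 20 months, the same 3 and *bta-miR-19a* fell, which is 4 of 7, where 13.3% of all miRNAs were called and the medians were −1.31 and −0.64.

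*bta-miR-19b* in EX had 1848.6, 1083.6 and 1754 CPM at 20 months (steers 1, 2 and 3), 1569.7, 1028 and 1388 CPM at 25 months, and 741, 404 and 950.2 CPM at 30 months. All 3 steers were lower at 30 than at 25 months, and the 30 months libraries lay below the other 6. The log2 fold change was −1.44 ± 0.23 (SE) against 25 months (FDR 0.00606) and −1.56 ± 0.23 against 20 months (FDR 0.00693).

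*bta-miR-92a* in EX had 12169.5, 12596 and 13079 CPM at 20 months, 12246, 10222 and 13077 CPM at 25 months, and 6380.1, 6078 and 7151 CPM at 30 months. The highest library at 30 months was well under the lowest earlier one. The log2 fold change was −1.33 ± 0.25 against 25 months (FDR 0.00992) and −1.31 ± 0.25 against 20 months (FDR 0.0116).

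*bta-miR-20a* in EX had 5301, 3538 and 5231 CPM at 20 months, 3841, 3980.4 and 3288 CPM at 25 months, and 2827, 2292 and 2199.9 CPM at 30 months, the last 3 again below the other 6. Its log2 fold change was −1.06 ± 0.21 against 25 months (FDR 0.0111) and −1.27 ± 0.21 against 20 months (FDR 0.00725). *bta-miR-19a*, which shares the seed of *bta-miR-19b*, had 1203, 636 and 984 CPM at 20 months, 752, 692 and 684 CPM at 25 months, and 466, 497 and 552 CPM at 30 months. The 20 and 25 months values overlapped, and those at 30 months lay below both. The log2 fold change of *bta-miR-19a* was −1.21 ± 0.23 against 20 months (FDR 0.0126) and −0.95 ± 0.23 against 25 months, where the FDR of 0.0299 passed and the fold change missed its limit.

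*bta-miR-17-5p*, with the seed of *bta-miR-20a*, was not called in EX. It had 814, 583 and 853 CPM at 20 months, 817, 501 and 305 CPM at 25 months, and 776, 962 and 341 CPM at 30 months. The 3 ages overlapped, 2 of 3 steers were higher at 30 than at 25 months, and the log2 fold change was −0.08 ± 0.39 (FDR 0.916), with an approximate 95% interval from −0.85 to 0.69. *bta-miR-18a* had 219, 53.4 and 254 CPM at 20 months, 222, 90.6 and 69.7 CPM at 25 months, and 36.5, 68.1 and 85.9 CPM at 30 months. Its groups overlapped, and the log2 fold change of −1.33 ± 0.75 did not pass (FDR 0.275). The counts of *bta-miR-18a* at 30 months were 72.5, 67.5 and 93, which is 0.843, 0.993 and 2.38 times the most common count of the library.

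Counted without a model, 4 of 7 members had all 3 EX libraries at 30 months below the other 6 in CPM: *bta-miR-19a*, *bta-miR-19b*, *bta-miR-20a* and *bta-miR-92a*. The same held for 51 of 345 miRNAs, or 14.8%. The size of the fall in the fit depends on the scaling. TMM, the trimmed mean scaling of edgeR, gave the EX libraries factors from 1.16 to 1.24 at 30 months and from 0.742 to 0.984 at 25 months, so that the fitted changes were larger than those in CPM. With library totals alone, 0 members were called against 25 months (*bta-miR-19b* −0.99, FDR 0.0363) and 1 against 20 months. With 1 steer left out, 0 or 1 members were called: against 25 months 1 without steer 1 and 0 without steer 2 or steer 3, and against 20 months 1 without steer 3 and 0 without steer 1 or steer 2. The 4 members named kept a lower estimate in each of these fits.

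From 20 to 25 months, 0 of 7 members were called in EX, where 0.29% of all miRNAs were, and 0 of 7 in FC, where 0.0% were. At an unadjusted p under 0.05, edgeR counted 0 members in both, and DESeq2 called 0 in both. The estimates of the 7 members lay between −0.49 (*bta-miR-17-5p*) and 1.9 (*bta-miR-17-3p*, SE 2.03) in EX. In FC they lay between −0.48 (*bta-miR-17-5p*) and 0.35 (*bta-miR-92a*).

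In the FC fraction only *bta-miR-92a* passed, and it fell in both comparisons with 30 months. That is 1 of 7 members against 25 months, where 15.6% of 358 miRNAs were called, and 1 of 7 against 20 months, where 6.98% were. The median log2 fold change from 25 to 30 months was −0.36 over the members and −0.20 over all miRNAs tested. Against 20 months the medians were −0.71 and −0.12.

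*bta-miR-92a* in FC had 11918, 9176 and 11585 CPM at 20 months, 12431, 10200.5 and 15136 CPM at 25 months, and 5973, 3902 and 4728 CPM at 30 months. The 30 months libraries lay below the other 6. The log2 fold change was −1.51 ± 0.28 against 25 months (FDR 0.0136) and −1.16 ± 0.28 against 20 months (FDR 0.0406). The deposited counts of this miRNA in FC stood in another row in 4 libraries (steer 3 at 25 months, and each steer at 30 months) and were recomputed from the CPM table. Taken as deposited, its log2 fold changes were −5.67 and −6.58, and it was not called in either comparison (FDR 0.0581 and 0.0651). It was not called without steer 3 against 25 months (−1.13, FDR 0.0541), or without steer 1 or steer 2 against 20 months (−1.30 and −1.03, FDR 0.0893 and 0.244).

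*bta-miR-20a* in FC had 6771, 3549 and 5088 CPM at 20 months, 4251, 3951 and 4569 CPM at 25 months, and 3064, 2154 and 2487 CPM at 30 months. Its 30 months libraries lay below the other 6, yet it was not called: the log2 fold change was −0.88 ± 0.25 against 25 months, with an FDR of 0.0419 and a fold change under the limit, and −0.96 ± 0.25 against 20 months (FDR 0.055). Of all miRNAs in FC, 65 of 358, or 18.2%, had their 3 libraries at 30 months below the other 6, and 2 of 7 members did.

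The pair with the seed GUGCAAA overlapped between ages in FC. *bta-miR-19b* had 1943, 1257 and 1474 CPM at 20 months, 1609, 1241 and 1997 CPM at 25 months, and 1287, 785 and 781 CPM at 30 months (log2 fold change −0.93 ± 0.32 against 25 months, FDR 0.0692). *bta-miR-19a* had 913, 630.1 and 849 CPM at 20 months, 873, 719 and 894 CPM at 25 months, and 894, 639.8 and 604 CPM at 30 months (−0.36 ± 0.25, FDR 0.322). All 3 steers were lower at 30 than at 25 months for *bta-miR-19b*, and 2 of 3 for *bta-miR-19a*. Without steer 3, *bta-miR-19a* had an estimate of 0.024.

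*bta-miR-18a* and *bta-miR-17-5p* were not called in FC. *bta-miR-18a* had 301, 143 and 292 CPM at 20 months, 201, 158 and 130.5 CPM at 25 months, and 160.1, 178 and 201 CPM at 30 months (log2 fold change 0.04 ± 0.27 against 25 months, FDR 0.903). *bta-miR-17-5p* had 639, 454 and 447 CPM at 20 months, 351, 320.1 and 332 CPM at 25 months, and 367, 195 and 333 CPM at 30 months (−0.33 ± 0.28, FDR 0.396). Both overlapped between 25 and 30 months. Against 20 months, all 3 libraries of *bta-miR-17-5p* at 30 months were lower, with a log2 fold change of −0.81 ± 0.28 that did not pass (FDR 0.102).

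**Figure D2:**
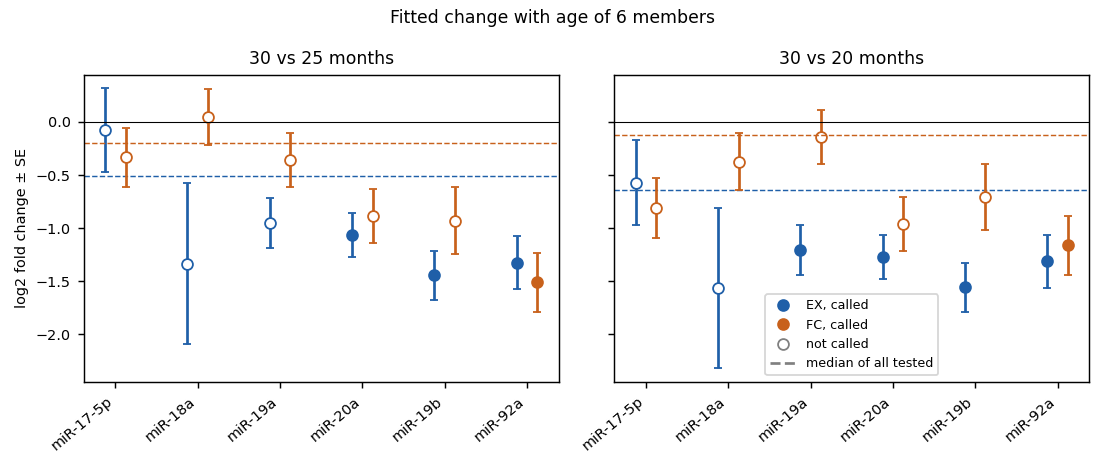
Fitted log2 fold change (y axis) with its standard error for 6 members, from 25 to 30 months on the left and from 20 to 30 months on the right, in EX (blue) and FC (orange). Filled points passed both limits, dashed lines mark the median of all miRNAs tested, and *bta-miR-17-3p* is left out because it had 0 or 1 counts in EX at 30 months. The filled EX points lie between −1.06 and −1.56, and the filled FC points, both of *bta-miR-92a*, at −1.51 and −1.16.

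The hairpin of miR-17 releases both of its arms as mature miRNAs. Its 3′ arm, *bta-miR-17-3p*, had 68, 45 and 0 counts in EX at 20 months, 76, 46 and 82 counts at 25 months, and 1, 0 and 0 counts at 30 months. In FC it had 402, 230 and 326 counts at 20 months, 303, 150 and 279 counts at 25 months, and 267, 173 and 127 counts at 30 months. So it was at or under the floor of 3 counts in all EX libraries at 30 months and in steer 3 at 20 months, and in none of the 9 FC libraries.

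Per count assigned to miRNAs, EX at 30 months held 0.787% of the *bta-miR-17-3p* of EX at 25 months (1 of 4062561 against 204 of 6525366 counts, exact 95% interval 0.0198 to 4.44%). Against FC at 30 months it held 0.534% (0.0135 to 2.98%). These intervals cover counting error only. At its EX rate of 25 months, *bta-miR-17-3p* would have had 62.2, 31.0 and 33.9 counts in the 3 libraries at 30 months, which is 0.723, 0.456 and 0.868 of their most common counts, or 2.05 such units in all. With steer as a block, the fall in EX from 25 to 30 months did not pass (FDR 0.0653), nor did that from 20 months (FDR 0.122). Without the block, the former did (FDR 0.0359).

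In FC, *bta-miR-17-3p* had 33.3, 31.8 and 34.9 CPM at 20 months, 31.4, 21.6 and 25.2 CPM at 25 months, and 54.8, 47.9 and 33.4 CPM at 30 months. All 3 steers were higher at 30 than at 25 months, but the log2 fold change of 0.66 ± 0.38 did not pass (FDR 0.242). The change from 25 to 30 months differed between the fractions for *bta-miR-17-3p* (interaction term in edgeR, FDR 0.0141). It passed the filter in EX only through libraries at 20 and 25 months, so in EX it had to be lower at 30 months. It was the only member of 7 called there, where 7.58% of 330 miRNAs were. With the plasma sample in place of the steer as the block, *bta-miR-19a* also passed (−0.79, FDR 0.0474). The difference for *bta-miR-17-3p* did not pass without steer 1 (FDR 0.152) or without steer 2 (FDR 0.126), with the estimate still lower in EX. With every count of a 30 months library taken in units of the most common one, a setting chosen after the data were seen, the FDR of *bta-miR-17-3p* was 0.61 and the estimate was again lower in EX.

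The 5′ arm stayed above the 3′ arm in all 18 libraries. In the 5 EX libraries with more than 3 counts of *bta-miR-17-3p*, *bta-miR-17-5p* was between 9.01 and 35.6 times as abundant. For steers 1, 2 and 3 in FC, the ratio was 19.2, 14.2 and 12.8 at 20 months, then 11.2, 14.8 and 13.1 at 25 months, then 6.69, 4.06 and 9.93 at 30 months. The 3 ratios at 30 months were below the other 6 in FC.

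Members of 1 transcript can be compared within a library, where scaling between libraries has no part. Each member was set against *bta-miR-20a*, whose hairpin lies in this cluster only, as a log2 ratio with 0.5 counts added, and the 2 arms of miR-17 against each other. Ages were compared by an exact two-sided permutation test over the 27 ways to take 1 age of each steer, whose smallest p is 0.037. Of 14 ratios (7 in each fraction), 4 reached that p, all in FC, and 0 passed after adjustment (adjusted p = 0.13 for these 4). At least 11 of the 14 would have to reach the smallest p for any to pass, so the adjusted values could hardly have passed in this design.

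Relative to *bta-miR-20a* in FC, the means at 30 months exceeded those at 20 and 25 months by 1.46 for *bta-miR-17-3p*, 0.74 for *bta-miR-18a* and 0.65 for *bta-miR-19a* on the log2 scale. The ratio of the arms of miR-17 was 1.12 lower (mean 2.69 ± 0.65 at 30 months against 3.81 ± 0.26, SD). Of these, the 30 months libraries overlapped the earlier ones only for *bta-miR-18a*. *bta-miR-19b* (0.10, p = 0.519) and *bta-miR-92a* (−0.42, p = 0.148) gave smaller differences in the same exact permutation test. In EX, none of the 7 ratios had a p under 0.111 in this exact test, so that *bta-miR-92a*, *bta-miR-19a* and *bta-miR-19b* showed no difference from *bta-miR-20a* that the design could separate. Those 3 EX differences were −0.14, 0.09 and −0.33. *bta-miR-17-5p* over *bta-miR-20a* differed by 0.83 in EX, with overlapping ages (p = 0.111, adjusted p = 0.288, the same exact test).

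**Figure D3:**
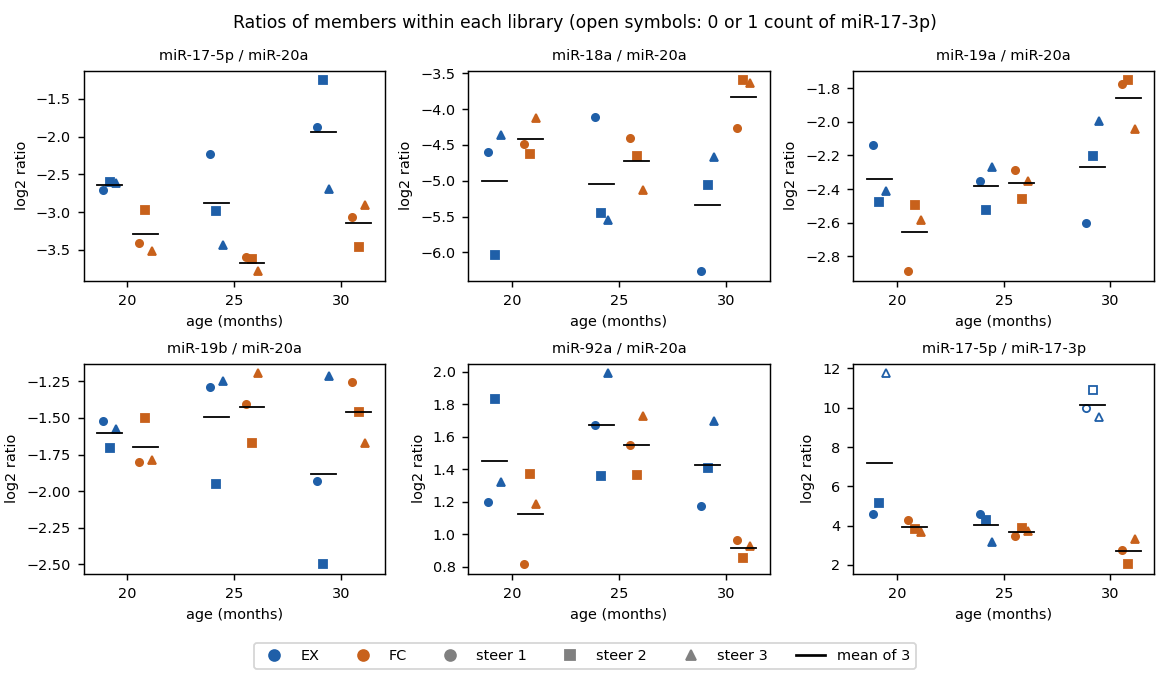
Log2 ratios of members within each library (y axes, differing in range) by age in months, with blue points for EX, orange points for FC, symbols for the 3 steers and black bars for the mean of 3. Open symbols have 0 or 1 counts of *bta-miR-17-3p*, where the ratio is set by the 0.5 counts added. In FC, *bta-miR-19a* over *bta-miR-20a* lies higher at 30 months than in any earlier library, and in EX the ages overlap.

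The spread of the ratio between members differed from pair to pair. Pairs of other miRNAs were not compared, so a small spread is not shown to be particular to the cluster. Among the 21 pairs of members, the SD of the log2 ratio over the 9 EX libraries was smallest for *bta-miR-19a* with *bta-miR-20a* (0.196), followed by *bta-miR-20a* with *bta-miR-92a* (0.291). In FC it was smallest for *bta-miR-19b* with *bta-miR-20a* (0.222), and *bta-miR-19a* with *bta-miR-20a* had 0.377. *bta-miR-17-5p* with *bta-miR-20a*, which share a seed, had an SD of 0.636 in EX and 0.315 in FC. The 6 pairs with *bta-miR-17-3p* had SDs from 2.89 to 3.35 in EX, where 4 libraries had 0 or 1 counts of it.

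As a description over 18 libraries, which share steers and plasma samples, the log2 level of each member was correlated with the median of the other 6. Pearson's r was 0.88 for *bta-miR-19b*, 0.87 for *bta-miR-20a*, 0.85 for *bta-miR-19a* and 0.71 for *bta-miR-92a*. It was 0.54 for *bta-miR-18a*, 0.32 for *bta-miR-17-3p* and 0.11 for *bta-miR-17-5p*. Among 323 other miRNAs, the median pattern of the cluster was most like that of *bta-miR-6120-3p* (r = 0.82), *bta-miR-11971* (0.79), *bta-miR-132* (0.77), *bta-miR-181a* (0.77) and *bta-miR-1277* (0.76). Of these 5, *bta-miR-6120-3p*, *bta-miR-132* and *bta-miR-1277* had no count in EX at 30 months.

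The comparison of the fractions asks what vesicles carry against what circulates outside them. At 20 and 25 months, 0 of 7 members differed between EX and FC, where 0.909% and 1.21% of 330 miRNAs were called. At an unadjusted p under 0.05, edgeR counted 0 members at both ages, and DESeq2 called 0. At 30 months 2 of 7 members were lower in EX, *bta-miR-17-3p* (FDR 0.0026) and *bta-miR-18a*, where 17.6% were called. The median log2 difference was −0.95 over the members and −0.52 over all miRNAs tested. With the plasma sample as the block, the same 2 members were called. *bta-miR-17-3p* passed the filter in EX only through libraries at 20 and 25 months, so its low EX level at 30 months was built into its selection.

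For *bta-miR-18a* at 30 months, the EX libraries of steers 1, 2 and 3 had 36.5, 68.1 and 85.9 CPM and the FC libraries 160.1, 178 and 201 CPM, so that each steer was lower in EX. The log2 difference was −1.96 ± 0.48 (FDR 0.00962). Neither of these 2 calls held in units of the most common count (FDR 0.404 for *bta-miR-17-3p* and 0.0801 for *bta-miR-18a*, whose estimate was −2.02), and with library totals alone *bta-miR-18a* was not called (FDR 0.0732). Without steer 1 or steer 2, 0 members were called, and without steer 3 there were 4, *bta-miR-17-3p*, *bta-miR-19a* and *bta-miR-19b* lower and *bta-miR-17-5p* higher in EX. In the full data, *bta-miR-19a* and *bta-miR-19b* were lower in EX at log2 differences of −0.95 ± 0.20 (FDR 0.00418) and −0.96 ± 0.27 (FDR 0.0215), under the fold limit.

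*bta-miR-92a* and *bta-miR-17-5p* stood apart from these members at 30 months. The log2 difference of *bta-miR-92a* was −0.03 ± 0.25 (FDR 0.95, approximate 95% interval −0.51 to 0.45), and it was above 0 under the other scalings tried (0.41 with library totals). *bta-miR-17-5p* had an estimate of 0.75 ± 0.34 in favour of EX (FDR 0.138), after 0.59 ± 0.34 at 20 months and 0.66 ± 0.34 at 25 months. With library totals alone it was called as higher in EX at 30 months (1.18, FDR 0.04).

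**Figure D4:**
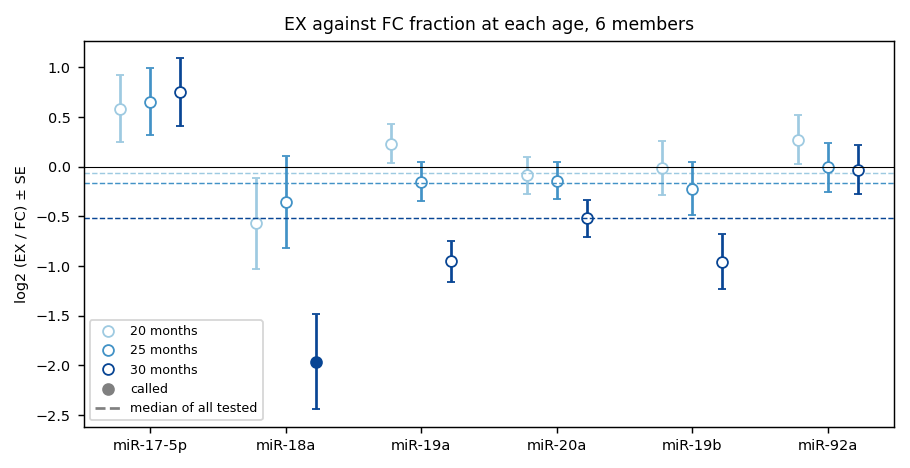
Log2 difference between EX and FC (y axis, EX over FC) with its standard error for 6 members at 20, 25 and 30 months (light to dark blue); *bta-miR-17-3p* is left out for its 0 or 1 counts in EX at 30 months. Filled points passed both limits, dashed lines mark the median of all miRNAs tested at each age, and the filled point is *bta-miR-18a* at 30 months, at −1.96.

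Ratios within a library gave the same comparison without scaling, paired over 9 plasma samples (exact two-sided sign-flip permutation test, adjusted over 7 ratios). *bta-miR-17-5p* over *bta-miR-20a* was higher in EX in 9 of 9 samples, by 0.88 ± 0.63 on the log2 scale (mean ± SD, adjusted p = 0.0273). *bta-miR-92a* over *bta-miR-20a* was higher in EX in 8 of 9, by 0.32 ± 0.24 (adjusted p = 0.0273). In the edgeR fit at 30 months, *bta-miR-20a* itself was at −0.52 ± 0.18 in EX against FC (FDR 0.0569). With the plasma sample as the block its FDR was 0.00894. *bta-miR-92a* was at −0.03 there, so at that age the ratio does not show a higher *bta-miR-92a* in EX. *bta-miR-18a* over *bta-miR-20a* was lower in EX in 8 of 9, at −0.80 ± 0.75 (adjusted p = 0.0273). Its mean difference was −0.59 at 20 months, −0.31 at 25 months and −1.51 at 30 months, where *bta-miR-18a* in EX is 0.843 to 2.38 times the most common count. All 3 steers gave the same sign for these 3 ratios. For the 5′ arm of miR-17 relative to its 3′ arm no test is given, because 4 of 9 EX libraries had 0 or 1 counts of *bta-miR-17-3p* and the 0.5 counts added fix the ratio there. Adjusted over the other 6 ratios, a setting added after seeing the data, the 3 p-values of the permutation test were 0.0234, 0.0234 and 0.0312. At 25 months, where all libraries had counts of both arms, its mean difference was 0.33 on the log2 scale.

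For the pair of equal seed, *bta-miR-17-5p* was 0.154, 0.165 and 0.163 of *bta-miR-20a* in EX at 20 months, against 0.0944, 0.128 and 0.0879 in FC. The mean difference was 0.65 at 20 months, 0.79 at 25 months and 1.21 at 30 months on the log2 scale. *bta-miR-19a* (−0.04 ± 0.43, adjusted p = 0.836) and *bta-miR-19b* (−0.13 ± 0.48, adjusted p = 0.524) had no clear difference relative to *bta-miR-20a* in this permutation test. The 9 plasma samples come from 3 steers, and these p-values treat them as independent. Over the 3 steer means, 1.09, 1.07 and 0.49 for *bta-miR-17-5p* over *bta-miR-20a*, the smallest two-sided p of the exact test would be 0.25. With 1 steer left out the smallest p of the test is 0.031, too large for a few of 7 ratios to pass after adjustment. The 3 differences kept their sign in these fits.

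Relatives outside the cluster were followed as a list of 8: *bta-miR-106a*, *bta-miR-18b*, *bta-miR-20b* and *bta-miR-363* of the paralogous cluster miR-106a-363, *bta-miR-106b*, *bta-miR-93* and *bta-miR-25* of the cluster miR-106b-25, and *bta-miR-92b*. In EX, 0 of 7 tested were called from 25 to 30 months and 1 was lower against 20 months, *bta-miR-106b* (−1.76 ± 0.44, FDR 0.036), where 14.2% and 13.3% of all miRNAs were called. In FC, 2 of 8 fell from 25 to 30 months, *bta-miR-363* (−2.92 ± 0.44, FDR 0.00673) and *bta-miR-92b* (−1.59 ± 0.30, FDR 0.0146), and 1 against 20 months, *bta-miR-363*, where 15.6% and 6.98% were called. *bta-miR-93*, with the seed of *bta-miR-20a*, and *bta-miR-25*, with that of *bta-miR-92a*, had estimates of 0.37 and 0.18 in EX and of 0.54 and 0.10 in FC from 25 to 30 months, and neither was called. The test of a difference in change between miRNAs of equal seed was not made.

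Markers of blood cells and liver were summed beside the cluster. Those of lymphocytes (*bta-miR-150*, *bta-miR-342*, *bta-miR-181a* and *bta-miR-155*, 4 of 4 in the table) ranged from 117012 to 330300 CPM in EX at 20 and 25 months and from 15249 to 28760.2 CPM at 30 months. In FC they ranged from 82866 to 235764 and from 15842 to 28646 CPM. Those of myeloid cells and platelets (3 of 3) ranged from 54293 to 91439 CPM in EX before 30 months and from 36475 to 48305 CPM at 30 months, and overlapped between ages in FC. The sums for red cells (3 of 3) and liver (2 of 2) overlapped between ages in both fractions. The log2 ratio of *bta-miR-451* to *bta-miR-23a*, a sign of burst red cells, ranged from 0.55 to 1.62 in EX at 25 months and from −0.89 to −0.21 at 30 months, and in FC from −0.12 to 0.54 and from −1.24 to −0.40. At 20 months it overlapped both, from −0.43 to 1.55 in EX and from −1.79 to 0.70 in FC. No marker was at 0 in all 3 libraries of a group. The lymphocyte sum moved with *bta-miR-92a* and *bta-miR-20a* in both fractions, as did the *bta-miR-451* ratio from 25 to 30 months, and the part of either in their fall was not tested.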

How the data were processed

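The authors trimmed reads with Cutadapt 5.0 and Trimmomatic 0.39, checked them with FastQC 0.12.1, mapped them to a Japanese Black genome built on ARS-UCD 1.2 and counted them per miRNA with miRDeep2. The authors deposited estimated counts, fractional where a read fits several miRNAs, and a signal table, CPM values with a row of totals, which was left out here. In 4 FC libraries the counts of 77 to 101 miRNAs differed from CPM times library total (relative tolerance 0.001, or 0.02 counts) and were recomputed from CPM.

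Counts were rounded, filtered at CPM above 5 in at least 3 of 9 libraries, scaled by TMM and fitted over all miRNAs in edgeR 4.0.16 (R 4.3.3, limma 3.58.1) by the quasi-likelihood test, for each fraction with age and steer, and over 18 libraries with 6 groups and steer. The titles number the samples 1 to 3, and the paper lists the same 3 steers at each age, so the numbers pair samples. P-values were adjusted by Benjamini and Hochberg. SE is the absolute log2 fold change over the square root of F. The approximate 95% intervals take this SE with the normal distribution, and are too narrow for so few libraries. DESeq2 1.42.0, other scalings, filters and blocks were alternatives. The fits were tested on simulated data. Permutation tests used Python 3.11.15, numpy 2.4.6, pandas 2.3.3 and scipy 1.17.1; matplotlib 3.10.9 drew the figures. The most common count is the value of 4 to 200 whose window, 1.25 times wide, held most whole counts of 4 or more. Counts within 0.02 of a whole number were taken as whole for this.

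The members, the relatives, the markers and the rule for like miRNAs (the 5 with the highest Pearson's r, over log2 CPM with 1 added) were chosen with earlier results of these data known. Builds differ between the files and the reference table, so no coordinates are given.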

Additional observations from a re-analysis of the deposited data

Results flagged for a closer look

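Between EX and FC, *bta-miR-17-3p* differed in its change from 25 to 30 months by a test of the difference itself (edgeR interaction term, FDR 0.0141). In EX, this miRNA passed the filter on low values only through libraries before 30 months. A lower EX level at 30 months was thus built into its selection, and the FDR does not allow for that. Its mean level went from 30.8 to 0.168 CPM in EX (204 counts and 1 count over 3 libraries) and from 26.0 to 45.4 CPM in FC (732 and 567 counts, in libraries of lower totals at 30 months). The FDR was 0.61 in units of the most common count at 30 months, a setting chosen after the data were seen, and 0.152 and 0.126 without steer 1 and without steer 2, with an estimate lower in EX in all 3 fits. The part of the low number of distinct counts in the EX libraries at 30 months was not tested apart from this setting.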

How the results depend on the processing

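The calls from 20 to 25 months, and between fractions at 20 and 25 months, numbered 0 in every alternative run. Elsewhere the number of members called moved as follows. With library totals alone it was 0 in EX from 25 to 30 months (3 in the reported fit) and 1 from 20 months (4). From 25 to 30 months in EX it was also 2 with RLE size factors, where *bta-miR-20a* missed the fold limit, and 4 with the likelihood ratio test, with no fold limit and in units of the most common count; from 20 months it was 5 with the likelihood ratio test. In FC from 20 to 30 months (1) it was 0 with RLE size factors, 0 with counts as deposited, 2 with no filter on low counts, where *bta-miR-20a* was added, and 2 in units of the most common count. In FC from 25 to 30 months (1) it was 0 with counts as deposited and 2 at an FDR under 0.05 with no fold limit. Between fractions at 30 months (2) it was 4 with no fold limit, 3 in DESeq2, with *bta-miR-17-5p* higher (1.02, FDR 0.0214), 3 with counts as deposited, and 0 in units of the most common count. For the difference in change between fractions (1) it was 2 with counts as deposited (*bta-miR-92a* added), 2 with the plasma sample as a replicate block (*bta-miR-19a* added) and 0 in units of the most common count, a setting added after seeing the data.

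Leaving out 1 steer gave 0 to 1 calls in EX from 25 to 30 months and from 20 months, 0 to 1 in FC from 25 to 30 months and from 20 months, 0 to 4 between fractions at 30 months and 0 to 1 for the difference in change. The ratios at the smallest p between ages (4) became 3 to 8, but that p is then 0.111 in place of 0.037. Between fractions 3 ratios passed, leaving out that of the arms of miR-17, for which no test is given, and this became 0, with a smallest p of 0.031 before adjustment, so these counts say nothing of stability. The pairing by steer is part of the design. Without the replicate block, 4 members were called in EX from 25 to 30 months, with *bta-miR-17-3p* added (FDR 0.0359), and no other call changed. DESeq2 called 3 and 5 members in EX from 25 and from 20 months, with *bta-miR-17-3p* in both and without *bta-miR-20a* from 25 months.

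Signs turned only for estimates that were not called, except in the counts as deposited. *bta-miR-17-5p* in EX from 25 to 30 months was 0.01071 with RLE size factors, 0.01081 in DESeq2, 0.37 with library totals, and −0.45 to 0.065 with 1 steer left out; from 20 months it was −0.97 to 0.0018. *bta-miR-92a* between fractions at 30 months was 0.23 with RLE size factors and in DESeq2, 0.41 with library totals, 0.13 with no filter, 0.010 in units of the most common count, 5.54 (FDR 0.000546) as deposited, and −0.092 to 0.085 with 1 steer left out. In FC from 20 to 25 months it was −0.91 as deposited. *bta-miR-18a* in FC from 25 to 30 months was −0.027 with no filter, −0.038 in units of the most common count, and −0.022 to 0.23 with 1 steer left out, and *bta-miR-19a* was −0.54 to 0.024. Between ages, with 1 steer left out, *bta-miR-18a* over *bta-miR-20a* in EX was −0.81 to 0.49, *bta-miR-19a* over *bta-miR-20a* in EX −0.031 to 0.32, and *bta-miR-19b* over *bta-miR-20a* in FC −0.027 to 0.24. Between fractions the last 2 ratios were −0.11 to 0.028 and −0.30 to 0.056. The causes were not tested, other than that the deposited rows were shifted and that fits without a steer hold fewer samples.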
